A study of Homo sapiens with 12 samples.

Results

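The E2F and retinoblastoma family is a set of cell cycle regulators, and 10 of its genes were followed here: E2F1, E2F2, E2F3, E2F4, E2F5, E2F7, E2F8, RB1, RBL1 and RBL2. They were chosen by symbol, each symbol matched 1 of the 60604 gene identifiers in the count table, and all 10 passed the filter on low counts that left 19662 genes for testing. RNA was sequenced from HEK293T cells (293T in the labels), a line from human embryonic kidney. The 3 groups were cells without plasmid (transfection reagents alone per the labels' protocol, non-transfected per the design text), cells transfected with sgRNA-dCas9-VP160-P2A-EGF, and cells given the same vector with 6 CD34-gRNAs. The protein dCas9-VP160 joins a Cas9 that cannot cut DNA to repeats of a viral activation domain, and the guides lead it to the CD34 promoter. The transfected dishes received 5.4 pmol of plasmid with lipofectamine 2000 for 48 h. There were no cells with an empty plasmid, so effects of plasmid DNA and of the fusion protein cannot be told apart. Cells with guides that do not target CD34 were also lacking, so effects of guide RNA and of CD34 activation cannot be told apart. Each group has 4 libraries, from 2 experiments on separate batches of cells with 2 technical replicates each.

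E2F proteins bind DNA at the promoters of genes for DNA replication and cell division, most of them as a pair with a DP protein. The pocket proteins RB1 (pRB), RBL1 (p107) and RBL2 (p130) bind E2F proteins and hold their target genes silent until cyclin-dependent kinases phosphorylate them. E2F1, E2F2 and E2F3 are known mainly as activators, E2F4 and E2F5 as repressors that act with RBL1 and RBL2, and the atypical E2F7 and E2F8 as repressors that need neither a DP partner nor a pocket protein. HEK293T cells carry adenovirus E1A and the large T antigen of simian virus 40, proteins known to bind all 3 pocket proteins. The genes of several family members are themselves E2F targets, and RBL2 is known as the pocket protein of resting cells.

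The promoter letters of the family are shown as a description. Of the 10 genes, 8 have a window in the RefSeq promoter table (GRCh38.p14, 250 bases before to 50 after a start). E2F5 and E2F8 were not matched. Each window was searched on both strands for the E2F letters TTTCGCGC, TTTCCCGC, TTTGCCGC and TTTGGCGC. E2F1, E2F2, E2F3 and RBL1 hold them and E2F4, E2F7, RB1 and RBL2 do not. Over all genes with a window, 1090 of 27305 (3.99%) hold them. The RB1 window lies at an internal start (chromosome 13, 48476450), downstream of the start of the gene in GENCODE v29 (48303726). A match describes letters only and was not measured as a bound site. The stretches before the start are printed in the direction of transcription, with the matched letters of either strand in capitals.
E2F1 (chr20:33686386-33686443, minus strand): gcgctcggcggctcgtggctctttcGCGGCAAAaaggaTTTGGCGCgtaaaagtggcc
E2F2 (chr1:23531243-23531300, minus strand): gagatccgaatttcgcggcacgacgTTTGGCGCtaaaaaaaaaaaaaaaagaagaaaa
E2F3 (chr6:20401801-20401858, plus strand): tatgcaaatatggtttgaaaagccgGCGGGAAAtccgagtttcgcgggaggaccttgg
RBL1 (chr20:37095998-37096048, minus strand): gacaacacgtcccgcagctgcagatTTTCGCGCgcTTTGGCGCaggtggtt
E2F1 and RBL1 each hold 2 matches, whose first letters lie 33 and 20 bases before the start in E2F1 and 26 and 16 bases before it in RBL1. E2F2 holds 1 match 42 bases before its start, and E2F3 holds 1 match 53 bases before the upstream of its 2 starts.

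The 12 libraries held 6750035 to 11932244 gene counts. CD34, the targeted gene, had 664 to 942 counts in the libraries with guides, 7 to 10 with dCas9-VP160 alone and 13 to 28 without plasmid. Spike-in sequences made up 0.719% and 0.404% of all counts in both experiment 1 controls but no more than 0.00818% in the remaining 10 libraries. Mitochondrial transcripts took 8.31% to 8.78% of gene counts without plasmid and 5.14% to 5.63% with dCas9-VP160. With guides they took 5.57% and 5.59% in the replicate 1 libraries but 7.50% and 7.44% in the replicate 2 libraries. The counts of paired technical replicates differed by a chi-square per gene of 4.37 and 3.07 with guides and 1.84 to 2.93 in the other groups. The part of these differences in the results was not tested. Of the cell type markers listed, the epithelial keratins KRT8 and KRT18 and the neurofilament NEFL, which HEK293 cells are known to express, were abundant (741.4, 348.6 and 349.1 CPM without plasmid). EPCAM and CDH1, which also define epithelial cells, had means under 1 CPM in each group, and HBB had 0 counts in every library. Among the mesenchymal markers VIM was also abundant (352.5 CPM without plasmid). COL1A1 and LUM had 28.4 and 3.74 CPM, and COL1A2 and DCN had means under 1 CPM in each group. The 5 mesenchymal markers summed to 368 to 402 CPM without plasmid, 305 to 338 with dCas9-VP160 and 282 to 322 with guides. In these transfected groups VIM had 291.3 and 270.4 CPM, and LUM 4.57 and 5.52. For the 5 epithelial markers the sums were 1106 to 1175 CPM without plasmid, 1266 to 1335 with dCas9-VP160 and 1247 to 1269 with guides. For the 3 endothelial markers they were 1.65 to 1.81, 2.39 to 3.41 and 2.73 to 3.04 CPM in the same order. The 3 neuronal markers summed to 332 to 375 CPM without plasmid, 472 to 534 with dCas9-VP160 and 537 to 571 with guides, and the 5 blood markers to 4.72 to 5.35 CPM without plasmid and 2.46 to 3.26 in all transfected cells. Their part in the results was not tested either. In such bulk RNA, fewer cells with a transcript and less transcript per cell cannot be told apart.

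Levels are given as CPM, that is counts after TMM scaling to a common total, and errors are the SD of the 2 experiments after their technical replicates were summed. Between genes, levels were compared per kilobase of exon, with the annotated exons of all transcripts of a gene merged. Which transcripts were expressed was not determined, so the order of the genes depends on this length. By this measure E2F1 was the most abundant member without plasmid, at 26.6 ± 4.39 CPM per kilobase (SD, n = 2), and E2F2 the least, at 3.95 ± 0.351. RB1 (19.9 ± 0.315) and RBL2 (18.4 ± 0.899) came after E2F1, followed by E2F4 (15.9 ± 1.14), RBL1 (13.9 ± 0.948), E2F7 (12.1 ± 0.929), E2F3 (10.1 ± 0.425), E2F5 (8.23 ± 0.359) and E2F8 (7.35 ± 0.0168). The values of the 2 experiments did not overlap between any neighbours in this order. With dCas9-VP160, E2F1 (32.3 ± 7.76) and RB1 (22.3 ± 1.57) were still the highest, while RBL2 (14.0 ± 0.414) lay next to E2F8 (13.9 ± 0.0928) and their experiments overlapped. E2F4, RBL1 and E2F7 also overlapped in turn with dCas9-VP160 (18.5, 18.5 and 17.6 CPM per kilobase), as did E2F5 and E2F2 (8.25 and 7.59). With guides, E2F7 stood in the third place (21.1 ± 0.826) and E2F5 in the last (7.88 ± 0.0313), and E2F4 overlapped E2F8 and E2F3 overlapped E2F2.

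**Figure D1:**
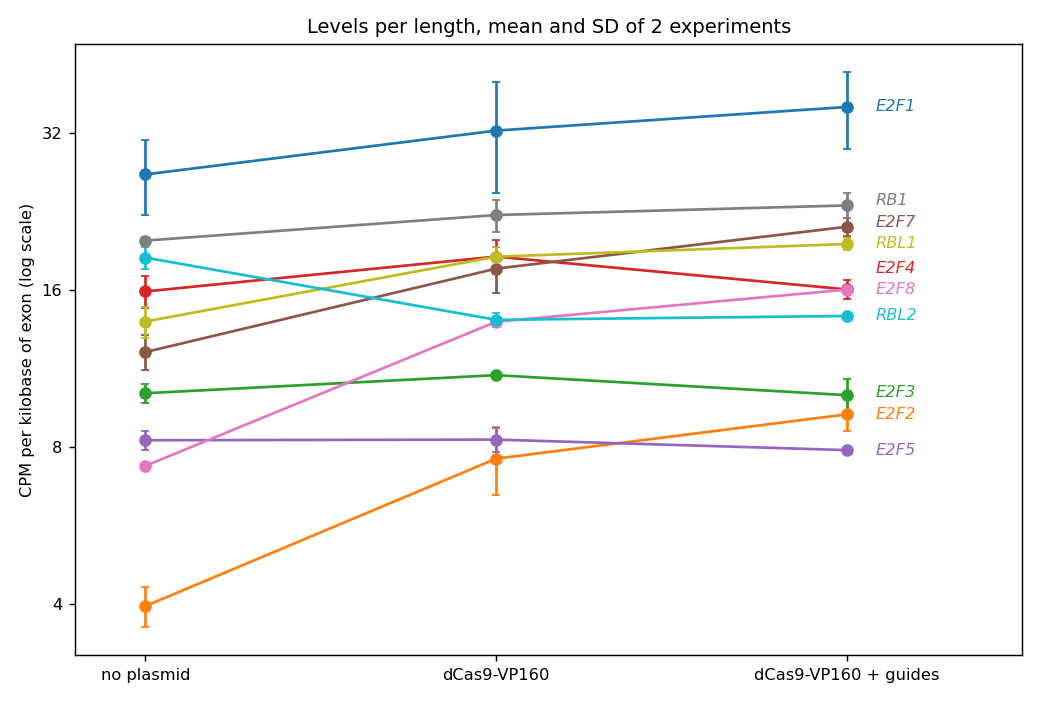
Mean level of each of the 10 genes in CPM per kilobase of exon (vertical log axis) in the 3 groups (horizontal axis), with bars for the SD of 2 experiments. E2F8 climbs in the order, E2F2 rises in level but stays near the bottom, RBL2 drops from 18.4 to 14.0, and E2F1 stays on top.

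In cells with dCas9-VP160 alone, 7 of the 10 genes passed the test as higher than without plasmid and 1 as lower, while E2F3 and E2F5 did not pass. The largest rises were those of E2F2 and E2F8, close to a doubling, and the gene that fell was RBL2. Among all 19662 genes 51.2% were called at an adjusted p under 0.05 in this comparison (26.6% higher and 24.6% lower), so a called gene is common in itself. The median log2 fold change of the 10 genes was 0.25, and that of all genes tested -0.0020. The 4 libraries of the 2 groups did not overlap for 6 of the 10 genes (5 higher, 1 lower), against 37.1% of all genes tested (19.2% higher and 17.9% lower). All p-values below are from edgeR's quasi-likelihood test with experiment as a block and Benjamini-Hochberg adjustment over all genes tested, and log2 fold changes (with approximate SE) are from the same fit.

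**Figure D2:**
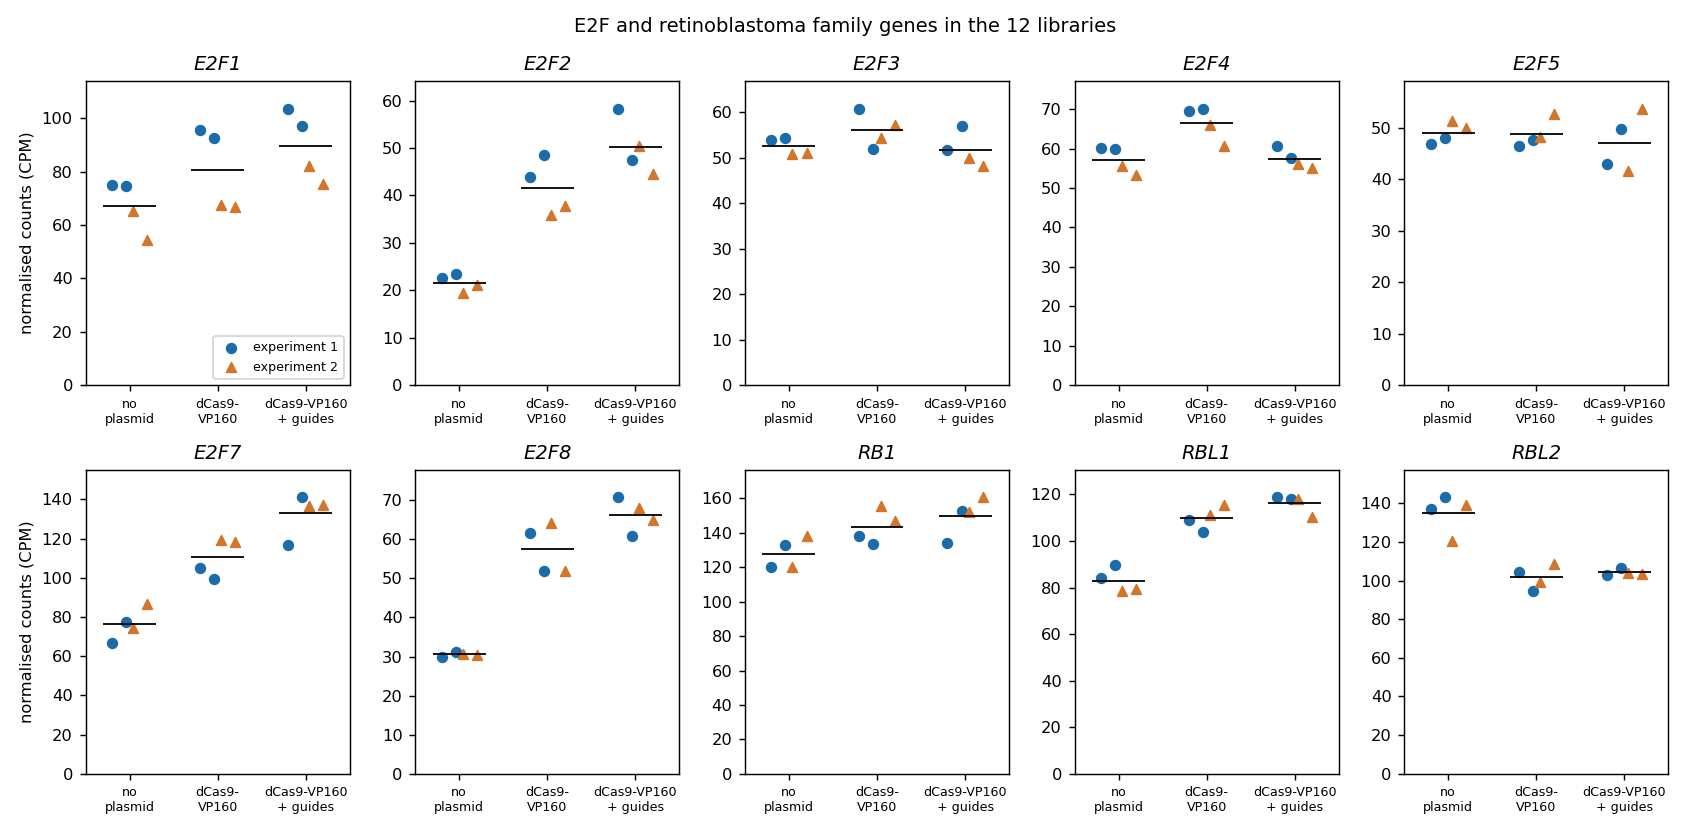
Normalised counts (CPM, vertical axis from 0) of each gene in the 12 libraries, by group on the horizontal axis; circles are experiment 1, triangles experiment 2, and bars the mean of 4 libraries. The transfected libraries of E2F2, E2F7, E2F8 and RBL1 all lie above, and those of RBL2 all below, the libraries without plasmid.

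Among the activators, E2F2 (GRCh38 chromosome 1, 23506430 to 23531220, minus strand) changed most. Its level without plasmid was 22.5 and 23.5 CPM in experiment 1 and 19.3 and 21.1 in experiment 2. It was 43.9, 48.6, 35.9 and 37.9 CPM with dCas9-VP160 in the same order, and 58.3, 47.5, 50.5 and 44.5 with guides. Every transfected library was above every library without plasmid. The log2 fold change with dCas9-VP160 was 0.94 (SE 0.07, adjusted p = 3.39e-11), from 21.6 ± 1.92 to 41.4 ± 6.17 CPM (SD, n = 2), and within experiments 1 and 2 it was 0.99 and 0.87. Of all genes tested, 94.7% had a lower log2 fold change than E2F2.

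E2F1 (chromosome 20, 33675683 to 33686404, minus strand), the activator best known for both S phase entry and apoptosis, rose less. It had 74.9, 74.8, 65.1 and 54.3 CPM without plasmid and 95.8, 92.7, 67.4 and 67.0 with dCas9-VP160, experiment 1 before experiment 2. The groups overlapped, because experiment 1 was higher than experiment 2 in each group, and within each experiment the transfected libraries were the higher ones. The log2 fold change was 0.27 (SE 0.05, adjusted p = 1.39e-04), with 0.35 and 0.19 in experiments 1 and 2. Without experiment 1, whose control libraries hold the spike-in sequences, it was 0.18 (adjusted p = 0.0812), and without the block on experiment 0.28 (adjusted p = 0.275). A fit without an experiment, here and below, holds only technical replicates in each group, so its error reflects technical replication.

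E2F3 (chromosome 6, 20401906 to 20493715, plus strand), the remaining activator, was not called. Its libraries ranged from 50.8 to 54.3 CPM without plasmid, from 51.8 to 60.8 with dCas9-VP160 and from 48.2 to 57.0 with guides, and all 3 ranges overlapped. The log2 fold change with dCas9-VP160 was 0.12 (95% interval -0.0035 to 0.24, adjusted p = 0.0986). It was 0.16 (adjusted p = 0.0288) without replicate 2 of experiment 1 with dCas9-VP160. Within libraries, the ratio of E2F2 to E2F3 counts was 0.380 to 0.432 without plasmid, 0.661 to 0.938 with dCas9-VP160 and 0.834 to 1.13 with guides. These ratios need no scaling between libraries, and those without plasmid were below all others. E2F3 has 2 processed pseudogenes in the table, E2F3P1 and E2F3P2, with at most 2 counts in a library.

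The repressors of the classical branch differed little. E2F4 (chromosome 16, 67192169 to 67198918, plus strand), the abundant E2F of non-dividing cells, had 60.2, 60.0, 55.5 and 53.2 CPM without plasmid and 69.6, 70.1, 65.9 and 60.5 with dCas9-VP160. The 2 groups did not overlap, the lowest transfected library lying just over the highest control. The log2 fold change was 0.22 (SE 0.06, adjusted p = 0.00160), equal to 1.17-fold, and without the block on experiment the adjusted p was 0.116. E2F5, a repressor closely related to E2F4, ranged from 47.0 to 51.2 CPM without plasmid, from 46.6 to 52.8 with dCas9-VP160 and from 41.6 to 53.7 with guides, all overlapping. Its log2 fold change was 0.0053 (95% interval -0.12 to 0.13, adjusted p = 0.952). Of the 5928 exonic bases of E2F5, 969 are shared with C8orf59 on the other strand. The kits named in the labels do not mark strand, while the design text calls the assay dirRNAseq and the strand setting of the counting is not stated. Reads within the shared bases may therefore not be told apart. C8orf59 had a like level, 47.4 ± 5.44 CPM in controls and 47.0 ± 2.24 CPM in cells given dCas9-VP160 (SD, n = 2).

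The atypical repressors both rose. E2F8 lies on chromosome 11 (19224063 to 19241620, minus strand) and E2F7 on chromosome 12 (77021247 to 77065580, minus strand). E2F8 had 29.8, 31.3, 30.8 and 30.3 CPM without plasmid and 61.6, 52.0, 64.2 and 51.9 with dCas9-VP160. The 4 control libraries spanned under 2 CPM, and the lowest transfected library stood well above them. The log2 fold change was 0.92 (SE 0.06, adjusted p = 2.35e-12), with 0.92 and 0.91 in experiments 1 and 2. E2F7 had 66.8, 77.4, 74.4 and 86.4 CPM without plasmid and 104.9, 99.3, 119.2 and 118.2 with dCas9-VP160, again with no overlap. Its log2 fold change was 0.53 (SE 0.05, adjusted p = 7.63e-10), with 0.50 and 0.56 in the 2 experiments. Of the genes whose promoter windows hold E2F letters, E2F1, E2F2 and RBL1 were called higher with dCas9-VP160 and E2F3 was not called. Of those whose windows hold none, E2F4, E2F7 and RB1 were called higher and RBL2 lower. Whether the letters bear on the response was not tested.

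The 3 pocket protein genes went different ways. RBL1 lies on chromosome 20 (36996349 to 37095995, minus strand), RBL2 on chromosome 16 (53433977 to 53491649, plus strand) and RB1 on chromosome 13 (48303726 to 48599436, plus strand). RBL1 (p107) had 84.2, 89.6, 78.7 and 79.5 CPM without plasmid and 108.8, 104.0, 111.1 and 115.4 with dCas9-VP160. No library of either group reached the other, and RBL1 rose by 0.42 on the log2 scale (SE 0.05, adjusted p = 1.75e-07). Within experiments 1 and 2 the rise was 0.30 and 0.53. RBL2 (p130) had 137.0, 143.1, 120.5 and 139.3 CPM without plasmid and 104.2, 94.6, 99.4 and 108.7 with dCas9-VP160. Its libraries were all lower in transfected cells. The fitted change was -0.39 on the log2 scale (SE 0.05, adjusted p = 8.44e-08), with -0.48 and -0.32 in experiments 1 and 2. The ratio of RBL1 to RBL2 counts was 0.571 to 0.653 without plasmid, 1.04 to 1.12 with dCas9-VP160 and 1.07 to 1.15 with guides, so that RBL2 had more reads than RBL1 in all 4 control libraries and fewer in all 8 transfected ones.

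RB1, the retinoblastoma gene, differed least of the 3. It had 120.4, 132.9, 120.2 and 138.4 CPM without plasmid and 138.4, 133.2, 155.4 and 147.2 with dCas9-VP160, and the groups overlapped. The log2 fold change was 0.16 (SE 0.04, adjusted p = 0.00303), equal to 1.12-fold. It was 0.16 (adjusted p = 0.0561) with DESeq2, 0.16 (adjusted p = 0.173) without the block on experiment, 0.0999 (adjusted p = 0.290) without experiment 2 and 0.0509 (adjusted p = 0.525) without the replicate 1 libraries. The exons of RBL2 share 610 bases with AKTIP and 721 with AC007342.6, both on the other strand, so reads within the shared bases may not be told apart either. AKTIP, a gene of vesicle traffic, was not called (22.6 ± 0.905 CPM in controls and 23.6 ± 1.06 CPM in cells given dCas9-VP160; SD, n = 2), and AC007342.6 fell from 15.6 ± 2.63 to 10.7 ± 0.313 CPM. RBL1 shares 211 bases with the antisense gene AL136172.1, at 4.58 ± 0.585 CPM without plasmid.

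**Figure D3:**
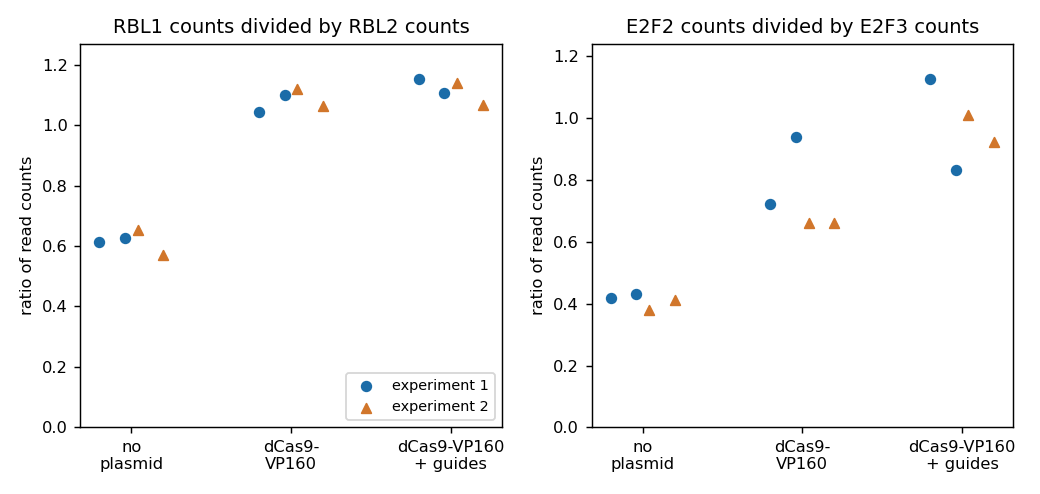
Ratio of RBL1 to RBL2 counts and of E2F2 to E2F3 counts (vertical axes from 0) in each library by group; circles are experiment 1 and triangles experiment 2. The 4 libraries without plasmid lie at 0.571 to 0.653 and at 0.380 to 0.432, below all 8 transfected libraries.

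Cells given dCas9-VP160 with the guides were also compared with cells without plasmid. This comparison shares its control libraries with the preceding comparison. Here 6 of the 10 genes passed as higher and 1 as lower, where 52.6% of all genes were called (26.7% higher and 25.9% lower). The log2 fold changes were 1.22 for E2F2 (SE 0.07), 1.12 for E2F8 (SE 0.06), 0.80 for E2F7 (SE 0.05), 0.49 for RBL1 (SE 0.05), 0.43 for E2F1 (SE 0.05) and 0.22 for RB1 (SE 0.04), and the highest adjusted p among them was 1.23e-04, for RB1. E2F1 and RB1 were not called without the block on experiment (adjusted p = 0.0969 and 0.0707). RBL2 differed by -0.37 on the log2 scale (SE 0.05, adjusted p = 2.41e-07), at 103.0, 106.6, 103.7 and 103.5 CPM in the libraries with guides. E2F3 (-0.012), E2F4 (0.013) and E2F5 (-0.061) were not called, with 95% intervals of -0.14 to 0.11, -0.11 to 0.13 and -0.19 to 0.066. E2F1 reached 103.7, 97.1, 82.1 and 75.4 CPM with guides, all above the 4 control libraries. RBL1 had 118.7, 118.1, 118.1 and 110.3 CPM with guides, also all above the controls, whereas RB1, at 134.1, 152.7, 152.1 and 160.6 CPM, overlapped them. In all, 6 of the 10 genes had no overlap between these groups (5 higher, 1 lower), against 38.9% of all genes tested (19.6% higher and 19.3% lower).

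**Figure D4:**
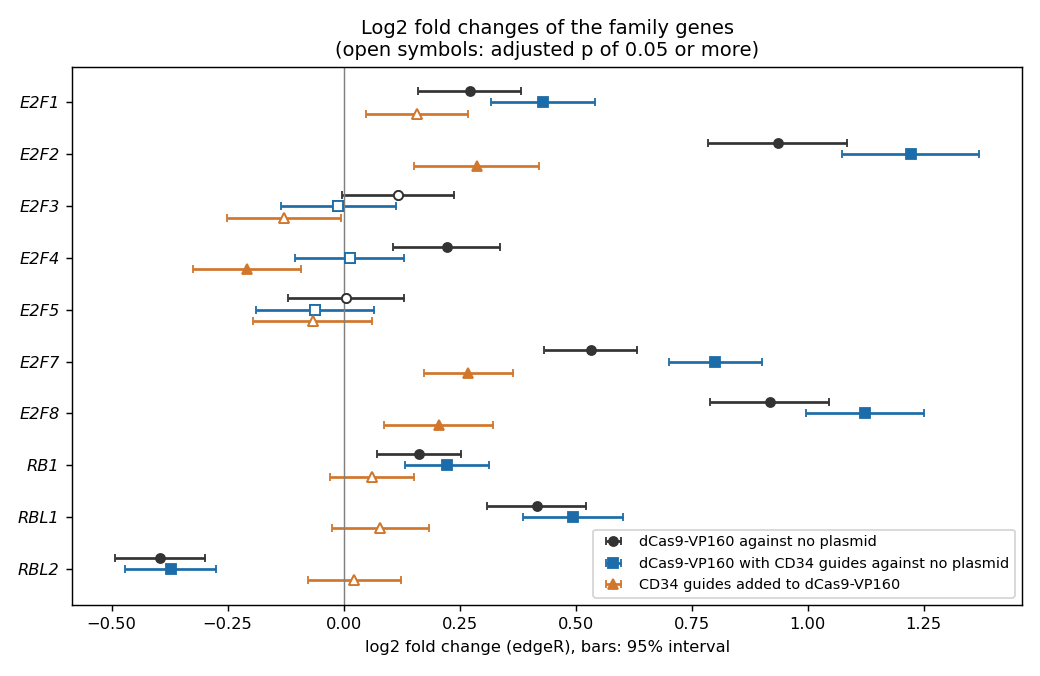
Log2 fold change of each gene (horizontal axis) in the 3 comparisons, with 95% intervals from the edgeR fit; open symbols have an adjusted p of 0.05 or more. E2F2, E2F7 and E2F8 lie to the right of 0 in all 3 comparisons, and RBL2 lies left of 0 in both comparisons with cells without plasmid.

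Adding the guides to dCas9-VP160 was followed by small differences in the family. E2F2, E2F7 and E2F8 were higher, E2F4 was lower and the other 6 genes were not called, where 7.56% of all genes were called (4.16% higher and 3.41% lower). With library totals in place of TMM factors, the calls over all genes were split 517 higher to 1122 lower in place of 817 to 670. E2F7 had 116.9, 141.0, 136.8 and 137.3 CPM with guides, a rise of 0.27 on the log2 scale (SE 0.05, adjusted p = 5.29e-04) or 1.20-fold. E2F2 differed by 0.29 (SE 0.07, adjusted p = 0.00644) and E2F8, at 70.7, 61.0, 68.1 and 65.0 CPM with guides, by 0.21 (SE 0.06, adjusted p = 0.0267). E2F4, at 60.6, 57.5, 56.1 and 55.2 CPM with guides, differed by -0.21 (SE 0.06, adjusted p = 0.0223). This fall and the rise of E2F4 with dCas9-VP160 against no plasmid rest on the same dCas9-VP160 libraries, so they are not independent. None of the 10 genes had groups without overlap in this comparison (8.53% of all genes had, 4.43% higher and 4.1% lower). E2F1 was not called (log2 fold change 0.16, 95% interval 0.049 to 0.27, adjusted p = 0.0697), nor were E2F3 (-0.13, -0.25 to -0.0055), E2F5 (-0.067, -0.19 to 0.061), RB1 (0.061, -0.030 to 0.15), RBL1 (0.078, -0.026 to 0.18) and RBL2 (0.023, -0.078 to 0.12).

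Of the 4 calls after adding the guides, only that of E2F7 was kept with DESeq2, and none without the block on experiment (adjusted p = 0.598 to 0.680). Without replicate 1 of experiment 1 with guides, E2F2 (adjusted p = 0.0996), E2F4 (0.0505) and E2F8 (0.200) were not called, and E2F2 was also lost without the replicate 1 libraries (0.661) or without experiment 2 (0.318). E2F4 was also lost without replicate 2 of experiment 1 with guides (adjusted p = 0.0609), without replicate 1 of either experiment with dCas9-VP160 (0.0609 and 0.0578) and without replicate 2 of experiment 2 without plasmid (0.0883). It was further lost without experiment 1 (adjusted p = 0.324) or experiment 2 (0.133) and without the replicate 1 (0.181) or replicate 2 libraries (0.116). E2F8 was also lost without replicate 2 of either experiment with dCas9-VP160 (adjusted p = 0.113 and 0.298), without replicate 1 of experiment 2 with guides (0.0824) and without replicate 2 of experiment 2 without plasmid (0.0797). Its call also went without experiment 1 (adjusted p = 0.298) or experiment 2 (0.271), without the replicate 1 (0.0754) or replicate 2 libraries (0.358) and with library totals in place of TMM factors (0.0687). E2F7 was called without any single library, but not without experiment 1 (adjusted p = 0.135) or without the replicate 2 libraries (0.105). E2F1, not called in all libraries, was called without replicate 2 of experiment 1 with guides (adjusted p = 0.0335), without replicate 1 of experiment 2 without plasmid (0.0401) and with RLE factors (0.0461). Whether a response differed between the experiments was tested with an interaction term over the 12 unsummed libraries, so its error reflects technical replication. No member was called for either dCas9-VP160 against no plasmid or the added guides (edgeR, 0 of 10 each), and among 17218 genes 2 (0.0116%) and 0 (0%) were. The unadjusted p of this test was under 0.05 for 1 member with dCas9-VP160, RBL1 (0.0313), and for 0 with the added guides.

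The partners and regulators of the family were taken from lists written from textbook knowledge, and the counts that follow are for dCas9-VP160 against no plasmid, where 26.6% of all genes were higher and 24.6% lower. Of the DP partners, TFDP1 (172.7 ± 15.5 CPM without plasmid, SD, n = 2; log2 fold change 0.054) and TFDP2 (90.6 ± 4.06 CPM; -0.055) were not called, and TFDP3 had no counts. E2F6, a repressor without a pocket-binding part, rose by 0.29 (SE 0.07, adjusted p = 0.00113). It was not called without the replicate 1 libraries or without the block on experiment. Among 8 genes of the DREAM complex, in which RBL1 or RBL2 and E2F4 or E2F5 join the MuvB core, and of its MYB and FOXM1 partners, 4 were higher, 1 lower and 3 not called. LIN52, a subunit of the MuvB core that contacts the pocket protein, rose by 0.75 (SE 0.07), MYBL2, an activator that joins MuvB in S phase, by 0.58 (SE 0.03), and LIN54, the DNA-binding subunit, by 0.48 (SE 0.06). MYBL1, a relative of MYBL2, rose by 0.24 (adjusted p = 0.0465), a call that was lost under 11 of 23 alternatives, 6 of them the omission of a single library. The gene that fell was RBBP4, a histone-binding subunit (-0.21), named after its value was seen.

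Genes of the cyclins and kinases that phosphorylate pocket proteins were split, with 2 higher, 5 lower and 2 not called of 9. CCND3, a D-type cyclin, rose by 0.63 (SE 0.05), whereas CCND1, another D-type cyclin, differed by -0.32 (SE 0.07) and CCNA2, the cyclin of S and G2 phase, by -0.25 (SE 0.04). CCNE2, an E-type cyclin that is also an E2F target, rose by 0.24 (SE 0.05). This call was lost without experiment 1 (adjusted p = 0.136), without the replicate 1 libraries (0.135) and without the block on experiment (0.152). The CDK inhibitors had 1 higher, 4 lower and 2 not called of 7. CDKN1C (p57) was at 11.1 CPM without plasmid and 5.57 with dCas9-VP160 (log2 fold change -0.99, SE 0.14), CDKN1B (p27) at 15.7 and 9.10 (-0.79, SE 0.11) and CDKN2C (p18) at 62.5 and 38.9 (-0.68, SE 0.06). The remaining lower gene, named after its value was seen, was CDKN1A (p21), at 493.4 CPM without plasmid and 407.7 with dCas9-VP160 (-0.28, SE 0.04). It had 441.7 CPM with guides, and its call with dCas9-VP160 was lost without the block on experiment (adjusted p = 0.167). CDKN2D (p19), an inhibitor of the cyclin D kinases, rose by 0.82 (SE 0.11). Of 13 chromatin cofactors 7 were higher, 4 lower and 2 not called, against 51.2% of all genes called in either direction. EZH2, the methyltransferase of histone H3 lysine 27, rose by 0.57 (SE 0.04), PCGF6, a Polycomb subunit that works with E2F6, by 0.44 (SE 0.06) and SUV39H1, a methyltransferase of histone H3 lysine 9, by 0.40 (SE 0.06), and the deacetylase HDAC1 fell, with a log2 fold change of -0.54 (SE 0.04). PCGF6 and SUV39H1 were not called without the block on experiment (adjusted p = 0.0521 and 0.0579).

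The target genes of the family were split by cell cycle phase. Of 40 G1/S targets of E2F, 29 were higher with dCas9-VP160, 4 lower and 7 not called, with a median log2 fold change of 0.24 against -0.0020 over all genes. CDC25A, a phosphatase that activates CDK2, rose from 59.0 ± 4.05 to 118.2 ± 11.8 CPM (SD, n = 2; 1.00, SE 0.05), CDC6, the loader of the replicative helicase, by 0.88 (SE 0.04), ORC1, of the origin recognition complex, by 0.78 (SE 0.06) and MCM10, a helicase cofactor, by 0.70 (SE 0.05). The 4 lower genes, named after their values were seen, were LIG1 (-0.38), CCNE1 (-0.22), UHRF1 (-0.18) and TYMS (-0.10). CCNE1 lost its call under 7 of 23 alternatives, among them the omission of replicate 1 of experiment 1 (adjusted p = 0.0537) or replicate 2 of experiment 2 (0.105) with dCas9-VP160. Without the block on experiment 18 of the 40 were higher and 1 lower, where 3036 of all 19662 genes were higher and 2528 lower. E2F letters stood in the promoter windows of 21 of the 34 G1/S targets with a window (61.8%), as in 4 of the 8 family genes with a window. The list was made of known E2F targets, so this share depends on how it was chosen and says nothing on the changes.

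Of 20 genes of G2 and mitosis that the DREAM complex represses, 1 was higher, 16 lower and 3 not called, with a median of -0.36. KIF20A, a mitotic kinesin, differed by -0.54 (SE 0.04), UBE2C, the ubiquitin-conjugating enzyme of the anaphase-promoting complex, by -0.51 (SE 0.04), CCNB1, the mitotic cyclin, by -0.43 (SE 0.04) and the checkpoint kinase gene BUB1 by -0.41 (SE 0.04). NUSAP1, a spindle protein gene named after its value was seen, was the higher one (0.30). E2F letters stood in the windows of 2 of the 16 with a window (12.5%). Of 10 apoptotic targets of E2F1, 2 were higher, 1 lower and 7 not called, where 51.2% of all genes were called. Among those that passed the test were HRK (0.48) and BCL2L11 (-0.48), both BH3-only genes.

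**Figure D5:**
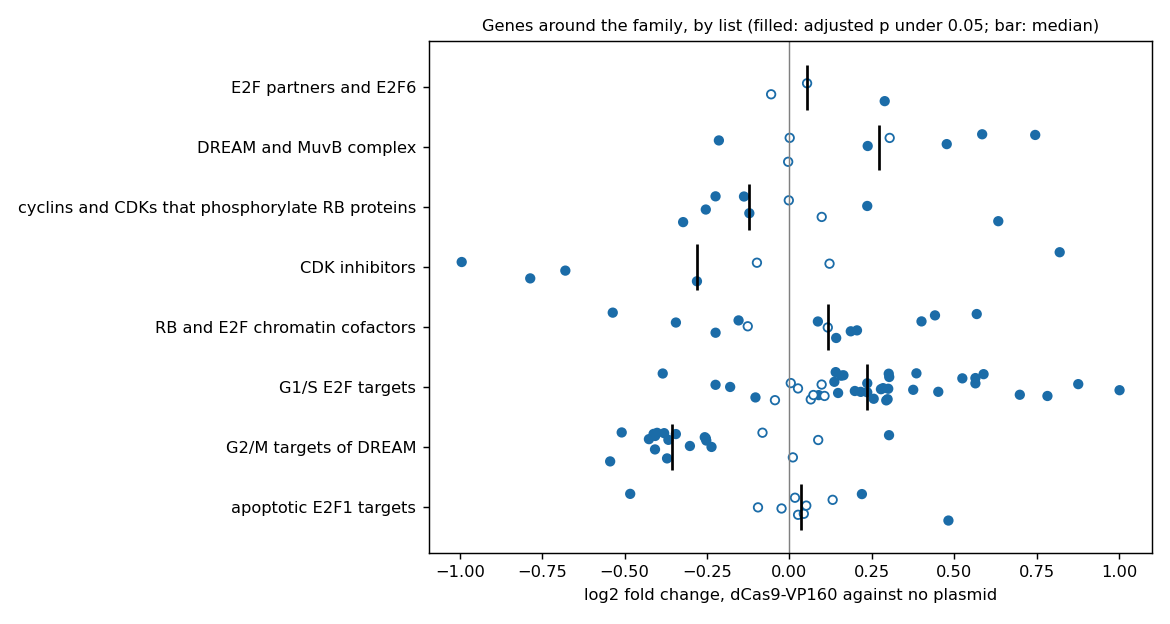
Log2 fold changes for dCas9-VP160 against no plasmid (horizontal axis) of the genes tested in 8 lists (vertical axis); filled points have an adjusted p under 0.05 and bars are list medians. The median of the G1/S targets lies at 0.24 and that of the G2/M genes at -0.36.

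When the guides were added, 18 of the 40 G1/S targets were higher, 1 lower and 21 not called (median 0.11), and 2 of the 20 G2/M genes were higher, 1 lower and 17 not called (median 0.022). Over all genes 4.16% were higher and 3.41% lower in this comparison, with a median of -0.0040. HELLS, a chromatin remodelling helicase, rose from 182.7 to 234.2 CPM (0.36, SE 0.04, adjusted p = 2.89e-06) and CDC6 from 300.9 to 369.3 CPM (0.30, SE 0.04, adjusted p = 8.34e-06). With DESeq2 10 G1/S targets were higher and 0 lower (276 and 83 over all genes), and without the block on experiment 0 and 0 (1 and 0 over all genes). CCNE2 rose by 0.29 (SE 0.05) while its relative CCNE1 differed by -0.23 (SE 0.07), MYBL2 rose by 0.20 (SE 0.03) and CDKN1B differed by -0.66 (SE 0.14). NUSAP1 (0.22, SE 0.04), the mitotic kinase gene TTK (0.20) and the p21 gene CDKN1A (0.12, SE 0.04) were also higher, and ARID4B, of an HDAC complex that binds RB1, was lower (-0.18). Among the other lists, APAF1, the core of the apoptosome, rose by 0.33 (SE 0.05), PPP1R13B, which encodes the p53 cofactor ASPP1, differed by -0.37 (SE 0.09), and TFDP1 (0.11), TFDP2 (-0.064) and E2F6 (0.11) were not called. Under the 23 alternatives CCNE1 and CDKN1A each lost the call 14 times, ARID4B 10 times and TTK 8 times. All 4 lost it when replicate 2 of experiment 2 without plasmid was left out (adjusted p = 0.0576 for TTK to 0.173 for CDKN1A). Without experiment 1, MYBL2 (adjusted p = 0.147), NUSAP1 (0.126) and PPP1R13B (0.304) were not called, and without experiment 2, CCNE2 (0.0615) and CDKN1B (0.226) were not. MYBL2 and CDKN1B also lost the call without the replicate 1 libraries, and CCNE2 and PPP1R13B without the replicate 2 libraries. Of the list genes named for the added guides, none was called without the block on experiment (lowest adjusted p = 0.338, HELLS).

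The genes most alike in pattern were taken from 11446 protein-coding genes of at least 5 CPM by Pearson correlation of log2 CPM over the 12 libraries, as a description only. For E2F2, whose group means spanned the widest range of the family, these were AARS1 (r = 0.995), HPS1 (r = 0.992) and TRIM35 (r = 0.991). For E2F1 they were PYCR1 (r = 0.964), SHISA5 (r = 0.958) and TSR2 (r = 0.957). The points share libraries, groups and experiments, and the few highest of many correlations over 12 libraries are high by selection.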

How the data were processed

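RNA was measured in 12 libraries of HEK293T cells, made with a SMART-Seq HT kit and Nextera XT from 1 ng of total RNA per the labels' protocols. The authors deposited read counts per gene, and the submitters' processing notes name Trim Galore 0.3.7, STAR 2.6.0c, Picard 2.17.1, DESeq2 1.16.1 and hg38. How reads were counted is not stated in these sources. The 92 spike-in rows stayed out of library sizes and tests. Technical replicates were summed, which gave 6 libraries. These entered a robust quasi-likelihood fit of edgeR 4.0.16 (R 4.3.3) after filterByExpr and TMM scaling, with experiment as block and all 3 groups in 1 fit with 2 residual degrees of freedom. Counts of 3 equal 0.250 to 0.439 CPM. The block comes from the design text, which names a second batch of cells; deviations of same-numbered experiments correlated at 0.616 to 0.631 over 12875 genes. A gene is called at an adjusted p under 0.05, and levels per kilobase use GENCODE v29 exons on GRCh38. Genes were matched by identifier, 41124 of 60604 having a symbol. Alternatives were other scaling, no filter, DESeq2 1.42.0, no block, unsummed libraries and omission of each library, replicate number and experiment. With an experiment omitted, the technical replicates of the other entered unsummed, so the error of those fits reflects technical replication only. Members and lists were chosen with earlier results of these data known. All 10 members are named. Of the lists, all partners and up to 4 called genes with the largest change (up to 2 for the added guides), of at least 5 CPM, are named, except 1 gene that is not reported here. The correlation names 3 genes for E2F1 and for the member of widest range. The authors' deposited table of comparisons was not used here.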

Additional observations from a re-analysis of the deposited data

Results flagged for a closer look

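RBL1 had 110.3 CPM in replicate 2 of experiment 2 with guides, while the other 3 libraries of that group lay between 118.1 and 118.7 CPM. The gap took 92.0% of the range of the group, a sample far from the others by Dixon's criterion for 4 values. This was 1 of 30 groups of 4 libraries examined (10 genes in 3 groups), and chance flags about 1 group in 20. RBL1 kept its call against cells without plasmid when this library was left out.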

How the results depend on the processing

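Of 690 log2 fold changes of the 10 genes over 23 alternatives and 3 comparisons, 646 kept their direction and side of the threshold, 40 lost the call, 4 gained it and 0 reversed. E2F2, E2F7, E2F8, RBL1 and RBL2 kept their calls in both comparisons with cells without plasmid under all 23. Of 2619 such values of the other named genes, 2421 kept direction and side, 177 lost the call, 21 gained it and 0 reversed. Without the replicate block on experiment, which pairs libraries from the same batch of cells, 3036 genes were higher and 2528 lower with dCas9-VP160 than without plasmid (5234 and 4836 with the block) and 4 of the 10 members were higher. In that fit 3229 and 2869 genes were higher and lower with guides than without plasmid, and after the guides were added 1 gene was higher and 0 lower, with 0 members higher and 0 lower. DESeq2 called 3406 and 2727 genes with dCas9-VP160, 2929 lower with guides against no plasmid, and 276 higher and 83 lower after the guides were added, with 1 member higher and 0 lower. Library totals in place of TMM factors gave 517 and 1122 genes for the added guides. Leaving out a library, replicate number or experiment gave 153 to 1030 genes higher and 139 to 840 lower for the added guides, with 1 to 4 members higher and 0 to 1 lower. Single libraries moved these counts by over 1.5 times: without replicate 2 of experiment 2 without plasmid they were 420 and 303, and without replicate 1 of experiment 1 with guides 501 and 400. The causes were not tested. No scaling moved the median log2 fold change of all genes by 0.1. With 2 experiments a group, small differences of low genes may have been missed, and no limit of detection is given here.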
